A study of Homo sapiens with 42 samples.

Results

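Amino acid transporters of 6 solute carrier (SLC) families were followed in the human melanoma cell line A375: SLC1A, SLC3A, SLC7A, SLC36A, SLC38A and SLC43A. Every gene whose symbol began with one of these family names and a digit, and held no hyphen, was taken, which gave 39 of the 19775 genes named on the arrays. The set held 7 SLC1A, 2 SLC3A, 14 SLC7A, 2 SLC36A, 11 SLC38A and 3 SLC43A genes. One of the 14 SLC7A symbols, SLC7A6OS, names the opposite-strand neighbour of SLC7A6 and not a transporter. It was kept because the symbol rule takes it, and its values are given apart. Each gene was read from its single-symbol probe set with the highest mean signal, and 25 of the 39 had more than 1 probe set.

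The study measured RNA on 42 Affymetrix arrays, 3 for each of 14 groups of A375 cells. Cells were transfected for 48 h with 1 of 4 siRNAs, whose targets were p53, CDT1, BRCA1 and, for the GL2 control, firefly luciferase. They were then treated for 26 h. The p53 siRNA groups received 650 nM MLN4924, 5 uM Nutlin, 100 nM daunorubicin or 0.065% DMSO, and the GL2 siRNA groups received the same 4 treatments. The CDT1 and BRCA1 siRNA groups received 650 nM MLN4924 or 0.065% DMSO. Under DMSO the p53 and GL2 siRNA cells were each measured in 2 sets of 3 arrays, called first and second here, and the labels do not say which drug belongs to which set. MLN4924 inhibits the NEDD8-activating enzyme and so stops cullin-RING ubiquitin ligases, Nutlin frees p53 from MDM2, and daunorubicin is an anthracycline that damages DNA. All groups are of 1 line with transient knockdown, and the labels do not say whether the 3 arrays of a group came from separate cultures, so the p-values measure the spread between these arrays, which may be technical.

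Amino acids cross membranes through carriers with distinct substrates and coupling. SLC3A2 (4F2hc, CD98) is a heavy chain that brings light chains of the SLC7A family to the cell surface, among them SLC7A5, which exchanges glutamine for leucine and other large neutral amino acids, and SLC7A11, which takes up cystine for glutathione in exchange for glutamate. SLC7A1 carries arginine and lysine, SLC1A members carry glutamate or small neutral amino acids with sodium, SLC38A members carry glutamine and alanine, and several SLC36A and SLC38A members act at the lysosome, where amino acids are sensed by mTORC1. Many carriers are transcribed under ATF4, the transcription factor of the amino acid and integrated stress response, and SLC7A11 also under NRF2, the factor of the oxidative stress response, which a cullin-RING ligase with KEAP1 keeps low.

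Promoter sequence was at hand from RefSeq (GRCh38.p14) for 30 of the 39 genes, and the 250 bases before each start site were searched on both strands for a motif of each factor. The composite C/EBP and ATF4 element was searched as TGATGNAA and stood in 1 of the 30, SLC1A3, against 3.19% of 27305 promoters. The core of the antioxidant response element, to which NRF2 binds, was searched as TGACNNNGC and stood in 4 of the 30 (SLC3A2, SLC7A1, SLC7A6 and SLC7A7), against 11% of the same promoters. Shown are the windows of 3 of these 5 genes that also changed in the arrays, with the motif in capitals, to let the letters be seen beside the values below. They lie at chr5:36596353-36596390 on the plus strand for SLC1A3, at chr11:62881647-62881685 on the plus strand for SLC3A2 and at chr13:29595750-29595788 on the minus strand for SLC7A1.
SLC1A3: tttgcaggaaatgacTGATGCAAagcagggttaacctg
SLC3A2: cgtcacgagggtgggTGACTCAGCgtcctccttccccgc
SLC7A1: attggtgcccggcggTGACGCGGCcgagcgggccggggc
The motif ran at bases -220 to -213 from the start site in SLC1A3, -37 to -29 in SLC3A2, whose start site in RefSeq's promoter table lies inside the span of the gene, and -85 to -77 in SLC7A1. A match is a run of letters and not a measured binding site, and a promoter without one says nothing of the factor outside this window.

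Levels are given as log2 signal after all arrays were shifted to a common median gene, so that a difference of 1 is 2-fold, and levels of different genes are not compared. A gene was called changed at a Benjamini-Hochberg adjusted p under 0.05 in limma and a change of at least 1.5-fold (0.585 on the log2 scale), and changes are log2 values ± SE. Centring moved changes relative to the deposited scaling by 0.11 to 0.42 in the 4 MLN4924 comparisons, by -0.17 for daunorubicin in GL2 siRNA cells and by -0.14 and -0.13 for Nutlin in p53 and GL2 siRNA cells. A gene below the median of all values on the arrays (a signal of 31.9, log2 5.00) in a group is called dim there, and 22 of the 39 were above it in every group, 8 in some groups and 9 in none. In these bulk samples, fewer cells of a type and less RNA per cell cannot be told apart. Of 7 melanocytic markers, MITF, TYR, SOX10 and S100B lay above that median while PMEL, MLANA and TYRP1 did not. Above it were also KRT8 and KRT18 of 6 epithelial, COL1A1, DCN, LUM and PDGFRB of 6 fibroblast and LYZ and LCP1 of 5 leukocyte markers, and EPCAM, PTPRC and CD3E were below. The summed signal over the arrays ran from 416.9 to 3541.7 for the melanocytic list, 1986.5 to 4210.5 for the epithelial, 317.4 to 1022.2 for the fibroblast and 108.5 to 871.3 for the leukocyte list.

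BRCA1 and CDT1 were low under DMSO with their own siRNAs. BRCA1 was at 5.98, 5.83 and 5.82 with the BRCA1 siRNA, against 8.89, 8.95 and 8.88 in the first and 8.70, 8.52 and 8.66 in the second GL2 set. CDT1 was at 6.67, 6.51 and 6.77 with the CDT1 siRNA, against 9.0, 9.17 and 8.70 in the first and 8.72, 8.78 and 8.56 in the second GL2 set. For the p53 siRNA the p53 target CDKN1A served as the check, with a change of -2.09 ± 0.12 (adjusted p = 1.59e-13) under DMSO against GL2. Of the 42 libraries, 3 stood apart, and results that rest on them are given with and without them. BRCA1 was at 4.70 in the library labelled GL2 MLN4924 replicate 3, against 7.95 and 8.24 in the other two of its group, and at 8.18 in the library labelled BRCA1 MLN4924 replicate 3, against 4.93 and 5.28. CDT1 likewise was at 7.27 in the library labelled GL2 MLN4924 replicate 3, against 8.86 and 8.81, and at 8.61 in the library labelled BRCA1 MLN4924 replicate 3, against 7.27 and 7.31. The levels in both libraries went against their labels. In p53 daunorubicin replicate 1 the 5′ to 3′ ratio of ACTB was 0.0118, against 0.649 to 0.945 in the other 41 arrays, and it is called the low-ratio library. Values below run from replicate 1 to 3, so one of these 3 doubted libraries is the last of each GL2 and BRCA1 MLN4924 triplet and the first of each p53 daunorubicin triplet.

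MLN4924 raised more of the carriers than it lowered in each of the 4 siRNA backgrounds, as the heatmap of the called genes shows. With the p53 siRNA 15 carriers rose and 2 fell, 43.6% of the 39, against 25.4% of all genes (17.8% higher, 7.60% lower). In CDT1 siRNA cells 5 rose and 1 fell, 15.4% against 10.6% of all genes (5.93% higher, 4.63% lower). In BRCA1 siRNA cells 7 rose and 1 fell, 20.5% against 16.9% (9.79% higher, 7.15% lower). GL2 siRNA cells had 8 higher and 1 lower, 23.1% against 17.2% (10.2% higher, 7.06% lower). The median change of the carriers was 0.42 against 0.20 for all genes with the p53, 0.27 against 0.10 with the CDT1, 0.34 against 0.16 with the BRCA1 and 0.29 against 0.08 with the GL2 siRNA. With the 3 doubted libraries left out, the calls were 7 higher and 1 lower with the BRCA1 and 9 and 1 with the GL2 siRNA. These counts take in SLC7A6OS. At the deposited scaling they were 6 higher and 4 lower in p53, 5 and 3 in BRCA1 and 6 and 3 in GL2 siRNA cells. Over all genes the deposited scaling gave 1054 higher and 3450 lower in p53, 1000 and 1977 in BRCA1 and 1125 and 2152 in GL2 siRNA cells. Some markers moved with MLN4924 too. The melanocytic markers S100B and SOX10 fell in all 4 backgrounds, S100B with changes of -3.57 with p53 and -2.67 with GL2 siRNA and SOX10 with -3.02 and -2.47. LYZ, of the leukocyte list, fell as well, with changes of -1.28 in p53, -1.61 in CDT1, -2.24 in BRCA1 and -0.88 in GL2 siRNA cells. KRT18, of the epithelial list, rose by 0.91, 0.84, 1.01 and 0.61 in the same order. Of the marker lists, 2 of 7 melanocytic genes fell and 0 rose in each background, 1 of 5 leukocyte genes fell and 0 rose in each, and 1 of 6 epithelial genes rose in each and 1 fell with p53 and CDT1. Of 6 fibroblast genes, 1 rose and 2 fell with p53, 0 and 0 with CDT1, 0 and 1 with BRCA1 and 0 and 1 with GL2 siRNA. The part of these markers in the changes of the carriers was not tested.

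Nutlin and daunorubicin gave the opposite balance in GL2 siRNA cells, with 3 carriers higher and 7 lower for each drug, 25.6% of the 39 in both cases. Of all genes Nutlin gave 16.4% (6.71% higher, 9.67% lower) and daunorubicin 16.4% (6.49% higher, 9.93% lower). At the deposited scaling 4 carriers rose and 7 fell under Nutlin and 3 rose and 5 fell under daunorubicin. Over all genes that scaling turned the balance, with 1879 higher and 1463 lower under Nutlin and 2055 and 1352 under daunorubicin. In p53 siRNA cells limma called 0 carriers under Nutlin (2 at an unadjusted p under 0.05), where 0.0556% of all genes were called (0.0405% higher, 0.0152% lower). Daunorubicin in p53 siRNA cells gave 4 higher and 1 lower, 12.8% against 12.0% of all genes (5.67% higher, 6.35% lower). Without the 3 doubted libraries the count was again 4 and 1, where all genes gave 612 higher and 1330 lower. The genes were not all the same, as SLC38A9 was not called without the low-ratio library (0.33, adjusted p = 0.0491). Without drug, 1 carrier rose and 1 fell with the p53 siRNA, 5.13% against 3.98% of all genes (1.71% higher, 2.27% lower). With the CDT1 siRNA 2 rose and 2 fell, 10.3% against 6.30% (2.72% higher, 3.58% lower). The BRCA1 siRNA raised 4 and lowered 4, 20.5% against 8.48% (4.11% higher, 4.37% lower). At the deposited scaling the p53 siRNA gave 2 higher and 1 lower, and so did the CDT1 siRNA, there and with quantile normalization. All genes gave 436 higher and 382 lower for the p53 siRNA at the deposited scaling. For the CDT1 siRNA they gave 673 and 619 there and 649 and 643 with quantile normalization. Over these 11 comparisons 24 of the 39 genes were called at least once. The matching count over all genes was not made, so this share has no background beside it. SLC1A1 and SLC38A1 were called in 8 of the 11.

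**Figure D1:**
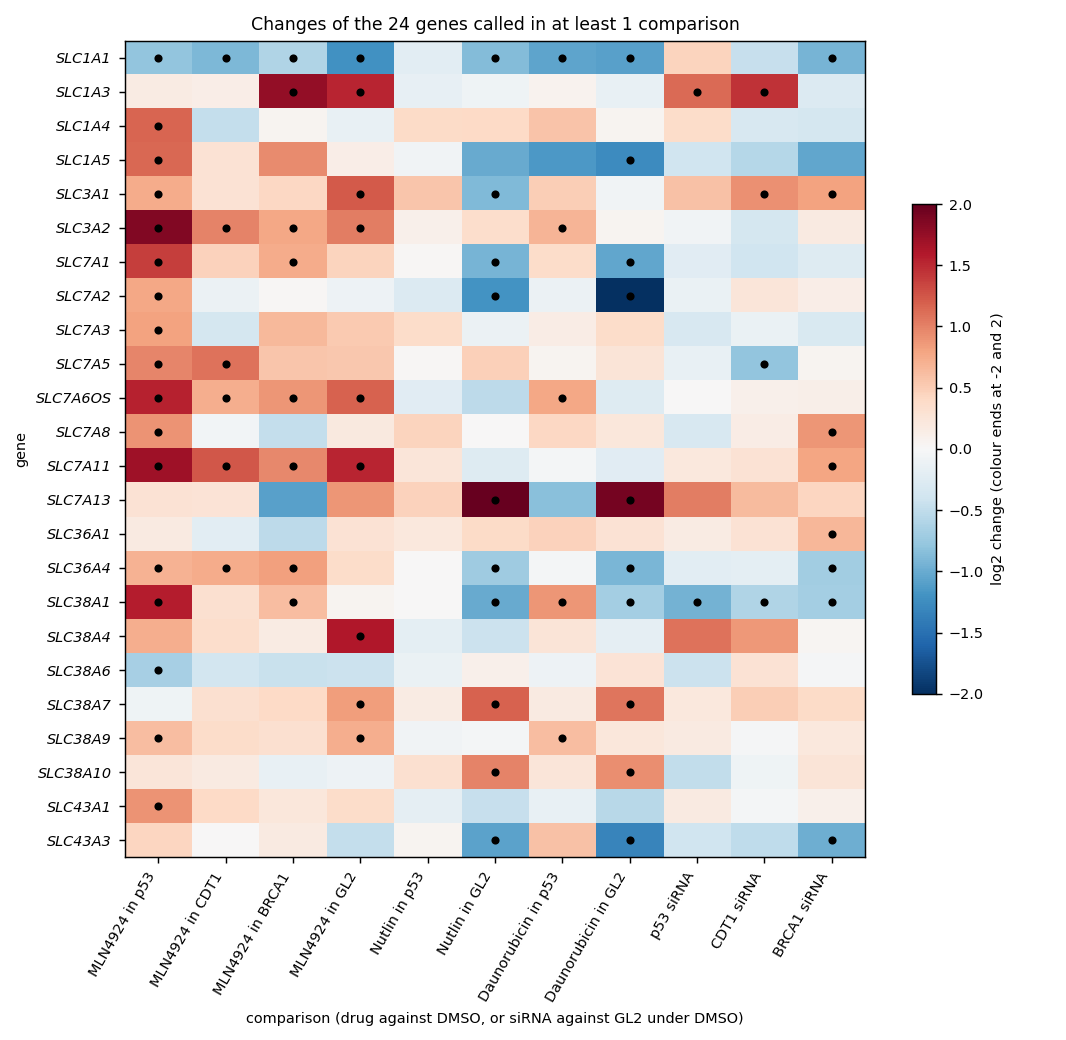
Log2 change of the 24 called genes in the 11 comparisons of a drug with DMSO or of an siRNA with GL2. Colour runs from -2 (lower) to 2 (higher), black dots mark called changes, and the MLN4924 columns hold more higher than lower calls while the Nutlin and daunorubicin columns of GL2 siRNA cells hold 3 higher and 7 lower each.

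The heavy chain SLC3A2 (chr11:62856109-62888860), whose promoter window is shown above, rose under MLN4924 with every siRNA. Its level was 11.33, 11.17 and 11.40 in p53 siRNA cells under MLN4924, against a lowest, median and highest of 9.27, 9.48 and 9.59 in the 6 DMSO arrays, a change of 1.85 ± 0.11 (adjusted p = 2.71e-14). In CDT1 siRNA cells it was 10.06, 10.20 and 10.24 under MLN4924, against 9.15, 9.21 and 9.16 under DMSO, a change of 1.0 ± 0.13 (adjusted p = 6.45e-07). The BRCA1 siRNA arrays gave 10.43, 10.42 and 10.59 under MLN4924, against 9.69, 9.73 and 9.70 under DMSO, a change of 0.77 ± 0.13 (adjusted p = 2.10e-05). Every MLN4924 array of these siRNAs lay above every DMSO array of the same siRNA. GL2 siRNA cells had 10.63, 10.63 and 10.37 under MLN4924, against 9.34, 9.52 and 9.67 (lowest, median, highest) in the 6 DMSO arrays, a change of 1.02 ± 0.11 (adjusted p = 1.09e-08), again without overlap. With the p53 siRNA daunorubicin gave 9.61, 10.34 and 10.21, against 9.58, 9.27 and 9.30 under DMSO, a change of 0.67 ± 0.13 (adjusted p = 0.000277). The low-ratio library was the lowest of the daunorubicin triplet and lay only just above the highest DMSO array. The daunorubicin call was lost without p53 daunorubicin replicate 2 (0.53, adjusted p = 0.00390), against the second DMSO set (0.54, adjusted p = 0.00205) and when only the 2 groups were fitted (0.67, adjusted p = 0.320), and quantile normalization took the BRCA1 change to 0.54 (adjusted p = 0.0238). When the 3 doubted libraries were left out, the changes were 0.89 (adjusted p = 9.33e-08) for daunorubicin with p53, and for MLN4924 0.72 (adjusted p = 1.13e-06) with BRCA1 and 1.11 (adjusted p = 4.00e-11) with GL2 siRNA.

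The cystine carrier SLC7A11 (chr4:138164097-138242349), which works as a dimer with SLC3A2, also rose under MLN4924 with every siRNA. In cells with the p53 siRNA it measured 10.98, 10.81 and 10.95 under MLN4924, against 9.11, 9.22 and 9.32 (lowest, median, highest of 6) under DMSO, a change of 1.70 ± 0.17 (adjusted p = 1.60e-09), or 3.24-fold. In CDT1 siRNA cells it measured 10.49, 10.64 and 10.49 under MLN4924, against 9.46, 9.09 and 9.34 under DMSO, a change of 1.24 ± 0.19 (adjusted p = 1.95e-05). Neither pair of groups overlapped. In BRCA1 siRNA cells MLN4924 gave 10.99, 11 and 10.29, against 9.99, 9.78 and 9.61 under DMSO, a change of 0.97 ± 0.19 (adjusted p = 0.000285). Under MLN4924 the GL2 siRNA cells had 10.28, 10.21 and 11.09, against 8.78, 8.95 and 9.29 (lowest, median, highest of 6) under DMSO, a change of 1.53 ± 0.17 (adjusted p = 1.87e-08). The third GL2 array, from the library labelled GL2 MLN4924 replicate 3, was the highest of its triplet and the third BRCA1 array the lowest of its own. Without the 3 doubted libraries the changes were 1.20 (adjusted p = 7.45e-09) with the BRCA1 and 1.25 (adjusted p = 3.30e-10) with the GL2 siRNA. When only the 2 groups were fitted, the BRCA1 call was lost (0.97, adjusted p = 0.0534). The BRCA1 siRNA alone raised SLC7A11, with 9.99, 9.78 and 9.61 under DMSO against 8.78, 8.95 and 9.29 (lowest, median, highest of 6) in GL2 siRNA cells under DMSO, a change of 0.79 ± 0.17 (adjusted p = 0.00121). Nutlin and daunorubicin did not pass the test for SLC7A11 in GL2 siRNA cells, at -0.26 ± 0.19 (adjusted p = 0.391) and -0.23 ± 0.19 (adjusted p = 0.477).

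SLC7A5 (LAT1; chr16:87830023-87869507), the leucine carrier that pairs with SLC3A2, rose under MLN4924 with the p53 and CDT1 siRNAs. It measured 12.15, 11.81 and 12.00 in p53 siRNA cells under MLN4924, against 10.80, 10.97 and 11.32 (lowest, median, highest of 6) under DMSO, a change of 0.98 ± 0.10 (adjusted p = 5.34e-09). In CDT1 siRNA cells the levels were 11.26, 11.53 and 11.57 under MLN4924, against 10.35, 10.32 and 10.44 under DMSO, a change of 1.08 ± 0.12 (adjusted p = 5.44e-08). The groups did not overlap in either background. With the BRCA1 siRNA the change was 0.55 ± 0.12 (adjusted p = 0.000663) and with GL2 0.54 ± 0.10 (adjusted p = 0.000128), both under 1.5-fold. Without the doubted library the GL2 change was 0.66 (adjusted p = 1.58e-05) and passed. The p53 change was under 1.5-fold at the deposited scaling (0.56) and with quantile normalization (0.47). The CDT1 siRNA alone lowered SLC7A5, to 10.35, 10.32 and 10.44 under DMSO, against 10.98, 11.18 and 11.27 (lowest, median, highest of 6) in GL2 siRNA cells under DMSO, a change of -0.79 ± 0.10 (adjusted p = 2.74e-06). All 3 CDT1 arrays lay below all 6 GL2 arrays.

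SLC7A8 (LAT2), another light chain for neutral amino acids, measured 6.53, 6.24 and 6.74 in p53 siRNA cells under MLN4924, against 5.17, 5.75 and 5.90 (lowest, median, highest of 6) under DMSO, a change of 0.89 ± 0.23 (adjusted p = 0.00188). With the BRCA1 siRNA under DMSO it measured 6.69, 7.01 and 6.71, against 5.17, 6.04 and 6.20 (lowest, median, highest of 6) with GL2, a change of 0.88 ± 0.23 (adjusted p = 0.00709). Groups did not overlap in either case. The first call was lost at the deposited scaling (0.47, adjusted p = 0.146), the second against the first DMSO set (0.68, adjusted p = 0.0983) and without BRCA1 DMSO replicate 2 (0.77, adjusted p = 0.0581), and both with the mean of all probe sets (0.31 and 0.38). SLC7A6 (y+LAT2), which exchanges cationic for neutral amino acids, was not called from its brightest probe set, with MLN4924 changes of 0.42, 0.41, -0.15 and 0.24 in p53, CDT1, BRCA1 and GL2 siRNA cells. Its other two probe sets gave larger changes, 1.26 and 1.42 in p53, 0.75 and 0.92 in CDT1, 0.56 and 0.54 in BRCA1 and 0.88 and 0.90 in GL2 siRNA cells. The 3 probe sets of this gene thus disagreed in size.

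SLC7A6OS, the opposite-strand gene that overlaps the end of SLC7A6 on chromosome 16, rose under MLN4924 with every siRNA. It measured 8.75, 8.75 and 8.82 under MLN4924 in p53 siRNA cells, against 7.05, 7.18 and 7.46 (lowest, median, highest of 6) under DMSO, a change of 1.54 ± 0.10 (adjusted p = 3.14e-13). The changes were 0.73 ± 0.12 (adjusted p = 2.78e-05) with CDT1, from 8.09, 8.05 and 8.01 under MLN4924 against 7.28, 7.34 and 7.33 under DMSO, and 0.89 ± 0.12 (adjusted p = 7.33e-07) with BRCA1, from 8.10, 8.26 and 8.28 against 7.36, 7.29 and 7.33. In GL2 siRNA cells it measured 8.41, 8.47 and 8.31 under MLN4924, against 7.15, 7.21 and 7.32 (lowest, median, highest of 6) under DMSO, a change of 1.18 ± 0.10 (adjusted p = 1.26e-10). No MLN4924 array overlapped the DMSO arrays of its siRNA. Daunorubicin in p53 siRNA cells gave 8.25, 7.78 and 7.64, against 7.15, 7.17 and 7.05 under DMSO, a change of 0.77 ± 0.12 (adjusted p = 2.10e-05), which was 0.56 (adjusted p = 0.000712), under 1.5-fold, against the second DMSO set. With the 3 doubted libraries left out, it was 0.59 (adjusted p = 0.000136), and the MLN4924 changes 0.85 with BRCA1 and 1.23 with GL2, both called.

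SLC3A1 (rBAT), the heavy chain that pairs with SLC7A9 for cystine and basic amino acids, differed between the DMSO sets. It was not dim in 10 of the 14 groups, but was dim in the second GL2 and the first p53 DMSO set. With the GL2 siRNA it measured 3.13, 3.41 and 3.24 in the second DMSO set, against 5.32, 5.39 and 5.27 in the first, a called difference of -2.07 ± 0.27 (adjusted p = 5.94e-05), the 1 call among the 39 genes where 0.941% of all genes were called. In p53 siRNA cells it measured 5.25, 5.69 and 5.33 in the second set, against 4.58, 4.2 and 4.19 in the first, a difference of 1.10 ± 0.27 (adjusted p = 0.0767), and 0 of the 39 genes were called between these sets, against 0.278% of all genes. Its 5 calls against DMSO turned on the set: 0.74 and 1.23 for MLN4924 in p53 and GL2 siRNA cells, -0.89 for Nutlin in GL2 siRNA cells, 0.91 for the CDT1 and 0.81 for the BRCA1 siRNA. Against the first set alone the GL2 MLN4924 change was 0.20 (adjusted p = 0.686), the CDT1 siRNA change -0.12 (adjusted p = 0.876) and the BRCA1 siRNA change -0.23 (adjusted p = 0.708). Against the second set alone the p53 MLN4924 change was 0.19 (adjusted p = 0.664) and the Nutlin change 1.18 (adjusted p = 0.00112), with the opposite sign. Except for Nutlin, the compared groups of these 5 calls overlapped.

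**Figure D2:**
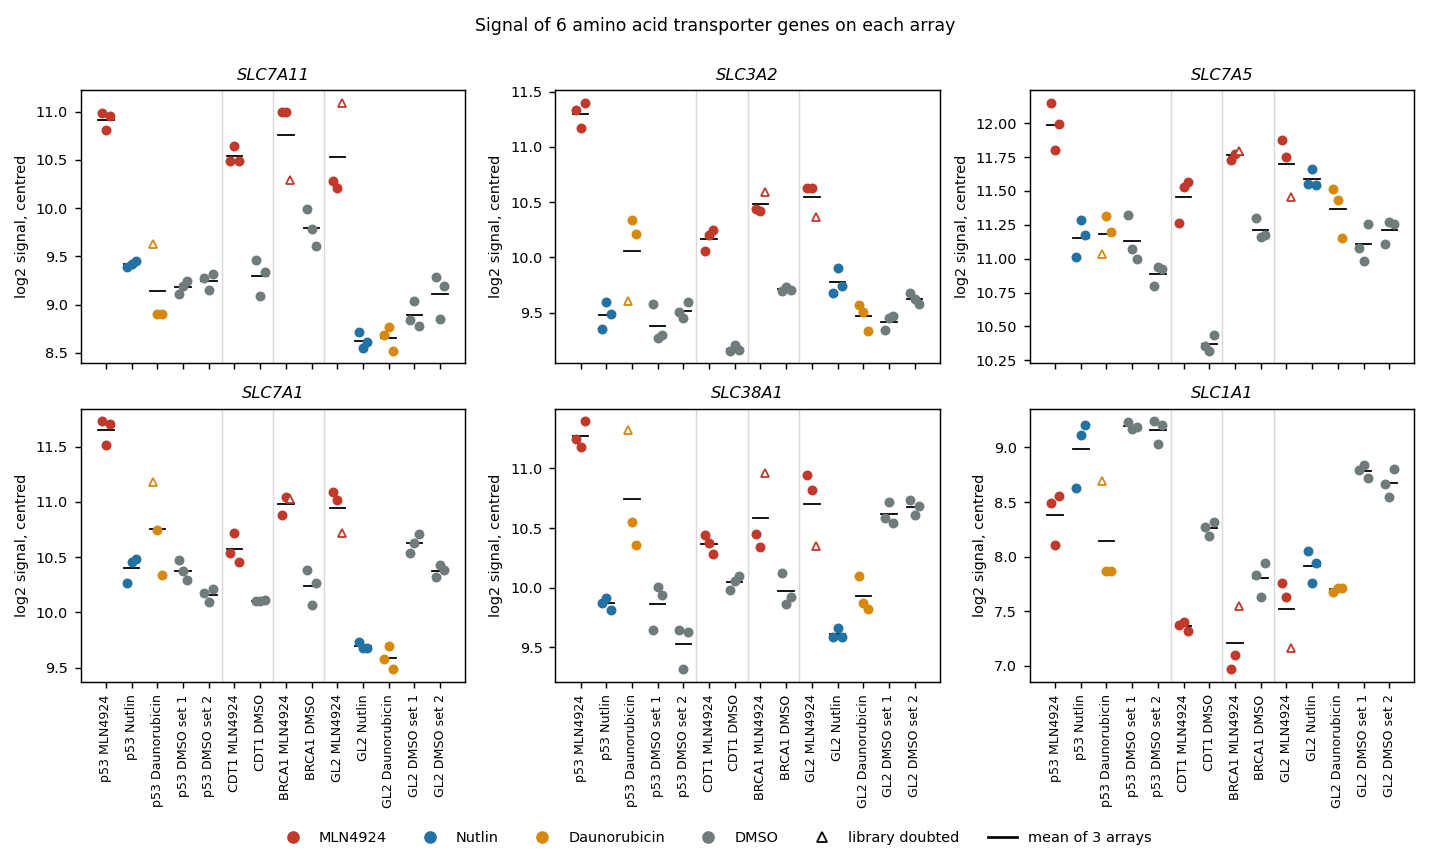
Log2 signal of SLC7A11, SLC3A2, SLC7A5, SLC7A1, SLC38A1 and SLC1A1 on each of the 42 arrays, in 14 groups ordered by siRNA with each drug left of its DMSO groups. Dots are arrays, bars are the means of 3 and open triangles the 3 doubted libraries. SLC3A2 and SLC7A11 sit higher under MLN4924 than under DMSO with every siRNA, and SLC1A1 lower.

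SLC7A1 (CAT1; chr13:29509414-29595688), the arginine and lysine carrier whose promoter window is shown above, rose under MLN4924 with the p53 and BRCA1 siRNAs and fell under Nutlin and daunorubicin with the GL2 siRNA. In p53 siRNA cells it measured 11.73, 11.51 and 11.70 under MLN4924, against 10.10, 10.25 and 10.47 (lowest, median, highest of 6) under DMSO, a change of 1.38 ± 0.11 (adjusted p = 4.49e-11). With the BRCA1 siRNA it measured 10.88, 11.04 and 11.02 under MLN4924, against 10.38, 10.06 and 10.27 under DMSO, a change of 0.74 ± 0.13 (adjusted p = 6.47e-05), which was under 1.5-fold at the deposited scaling (0.56) and with quantile normalization (0.50). Every MLN4924 array in both siRNA backgrounds was above its DMSO arrays. Nutlin gave 9.73, 9.68 and 9.68 in GL2 siRNA cells, against 10.54, 10.63 and 10.71 under DMSO, a change of -0.93 ± 0.13 (adjusted p = 1.90e-06). Daunorubicin gave 9.58, 9.69 and 9.48 in GL2 siRNA cells, against the same DMSO arrays, a change of -1.04 ± 0.13 (adjusted p = 2.78e-07). Both sets of drug arrays lay wholly below the DMSO arrays. Its changes of 0.47 with CDT1 and 0.44 with GL2 siRNA under MLN4924, and of 0.02 under Nutlin and 0.37 under daunorubicin with p53 siRNA, were under 1.5-fold and not called. With the mean of all 5 probe sets the Nutlin and daunorubicin calls were lost (-0.40, adjusted p = 0.270, and -0.63, adjusted p = 0.0575), as was the BRCA1 call (0.34, adjusted p = 0.360).

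SLC7A2 (CAT2), another cationic carrier, fell in GL2 siRNA cells to 3.12, 2.84 and 3.27 under daunorubicin, where it was dim, against 5.68, 5.62 and 6.08 under DMSO, a change of -2.72 ± 0.24 (adjusted p = 2.65e-10). With Nutlin it fell to 4.74, 3.99 and 5.08, a change of -1.19 ± 0.24 (adjusted p = 0.000310). Neither drug group overlapped DMSO. Under MLN4924 in p53 siRNA cells SLC7A2 measured 6.74, 6.38 and 6.43, against 5.46, 5.70 and 6.08 (lowest, median, highest of 6) under DMSO, a change of 0.78 ± 0.21 (adjusted p = 0.00307), which was 0.36 (adjusted p = 0.154) at the deposited scaling. Both falls were lost with the mean of all probe sets (-0.90, adjusted p = 0.149, and -0.59, adjusted p = 0.387). SLC7A3 (CAT3), dim under DMSO, measured 5.07, 5.02 and 5.36 in p53 siRNA cells under MLN4924, against 3.78, 4.34 and 4.79 (lowest, median, highest of 6) under DMSO, a change of 0.80 ± 0.28 (adjusted p = 0.0211) that was lost at the deposited scaling (0.39, adjusted p = 0.299) and without p53 MLN4924 replicate 3 (0.70, adjusted p = 0.104) or p53 DMSO replicate 1 (0.66, adjusted p = 0.0621). SLC7A13, a carrier of aspartate and glutamate in kidney, was dim in every group and was called higher in GL2 siRNA cells, at 4.17, 3.92 and 3.93 under Nutlin and 4.09, 4.02 and 3.70 under daunorubicin, against 2.39, 2.56 and 1.11 under DMSO. Its changes, 1.99 ± 0.57 (adjusted p = 0.00928) and 1.92 ± 0.57 (adjusted p = 0.0121), were lost without GL2 DMSO replicate 3 (1.53, adjusted p = 0.0808, and 1.46, adjusted p = 0.101) and against the second DMSO set.

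Among the glutamate carriers, SLC1A1 (EAAT3; chr9:4490468-4587469) fell under MLN4924 with every siRNA and SLC1A3 (EAAT1, GLAST; chr5:36596588-36688334) rose under it with 2 of the 4. SLC1A1 measured 8.49, 8.11 and 8.55 in p53 siRNA cells under MLN4924, against 9.03, 9.20 and 9.24 (lowest, median, highest of 6) under DMSO, a change of -0.80 ± 0.16 (adjusted p = 0.000103). It was 7.37, 7.40 and 7.32 in CDT1 siRNA cells under MLN4924, against 8.27, 8.19 and 8.32 under DMSO, a change of -0.89 ± 0.18 (adjusted p = 0.000537). With the BRCA1 siRNA the levels were 6.97, 7.10 and 7.55 under MLN4924, against 7.83, 7.63 and 7.94 under DMSO, a change of -0.60 ± 0.18 (adjusted p = 0.0131). All MLN4924 arrays lay below their DMSO arrays, and the doubted BRCA1 library was the highest of its triplet. GL2 siRNA cells had 7.76, 7.63 and 7.16 under MLN4924, against 8.55, 8.76 and 8.84 (lowest, median, highest of 6) under DMSO, a change of -1.21 ± 0.16 (adjusted p = 3.12e-07). The BRCA1 call was lost without any one of 4 of the 6 arrays, where changes ran from -0.58 to -0.48 without BRCA1 DMSO replicate 1 or 3 or BRCA1 MLN4924 replicate 1 or 2. When the 3 doubted libraries were left out, it was -0.77 (adjusted p = 4.79e-05), and the GL2 change -1.03 (adjusted p = 6.55e-08).

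SLC1A1 also fell with the other drugs. Nutlin gave 8.05, 7.76 and 7.94 in GL2 siRNA cells, against 8.80, 8.84 and 8.72 under DMSO, a change of -0.87 ± 0.18 (adjusted p = 0.000394). Daunorubicin gave 7.68, 7.71 and 7.72 in the same cells, a change of -1.08 ± 0.18 (adjusted p = 2.23e-05), and 8.70, 7.87 and 7.87 in p53 siRNA cells against 9.23, 9.17 and 9.19 under DMSO, a change of -1.05 ± 0.18 (adjusted p = 8.74e-05). The low-ratio p53 library was the highest of its triplet, and all 3 still lay below DMSO. Without it the change was -1.33 (adjusted p = 3.40e-08). Without drug the BRCA1 siRNA gave 7.83, 7.63 and 7.94, against 8.55, 8.76 and 8.84 (lowest, median, highest of 6) with GL2, a change of -0.93 ± 0.16 (adjusted p = 9.15e-05). The Nutlin call was lost with the mean of its 2 probe sets (-0.51, adjusted p = 0.113), as was the MLN4924 call in p53 siRNA cells (-0.56, adjusted p = 0.0245), and the p53 daunorubicin call when only the 2 groups were fitted (-1.05, adjusted p = 0.198).

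SLC1A3 was low under DMSO in GL2 and BRCA1 siRNA cells and high with the p53 and CDT1 siRNAs. It was the 1 of the 30 genes searched with the ATF4 letters in its promoter window, against 3.19% of all promoters. Whether the letters bear on its changes was not tested. Under DMSO the p53 siRNA cells measured 7.06, 7.20 and 7.37 and the GL2 siRNA cells 5.58, 6.05 and 6.43 (lowest, median, highest of 6 each), a change of 1.14 ± 0.14 (adjusted p = 1.29e-06). The CDT1 siRNA gave 7.37, 7.53 and 7.60 under DMSO, a change of 1.44 ± 0.18 (adjusted p = 1.01e-06) against the same GL2 arrays. Neither siRNA group overlapped GL2. Under MLN4924 the BRCA1 siRNA cells measured 7.61, 7.70 and 7.32, against 6.28, 5.71 and 5.37 under DMSO, a change of 1.76 ± 0.20 (adjusted p = 8.05e-08), and the GL2 siRNA cells measured 7.53, 7.43 and 7.79, a change of 1.52 ± 0.18 (adjusted p = 5.57e-08). With the p53 siRNA MLN4924 gave 7.42, 7.23 and 7.42 and a change of 0.16 ± 0.18 (adjusted p = 0.538), and in CDT1 siRNA cells 7.62, 7.69 and 7.57 and a change of 0.13 ± 0.20 (adjusted p = 0.766), both short of the test. Without the 3 doubted libraries the MLN4924 changes were 1.87 (adjusted p = 2.45e-08) with BRCA1 and 1.42 (adjusted p = 2.57e-07) with GL2. The arrays of the 4 MLN4924 groups spanned 7.23 to 7.79, against 5.37 to 7.60 in the DMSO groups.

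The neutral carriers of this family, SLC1A4 (ASCT1; alanine, serine, cysteine) and SLC1A5 (ASCT2; glutamine), rose under MLN4924 with the p53 siRNA. SLC1A4 measured 8.80, 8.40 and 8.55 under MLN4924, against 7.31, 7.40 and 7.59 (lowest, median, highest of 6) under DMSO, a change of 1.16 ± 0.18 (adjusted p = 6.15e-06). In cells with the GL2 siRNA it was 7.34, 7.27 and 6.11 under MLN4924, against 6.70, 7.08 and 7.33 (lowest, median, highest of 6) under DMSO, a change of -0.15 ± 0.18 (adjusted p = 0.624). The third GL2 value, that of the doubted library, lay more than 1 below the others, and without the doubted libraries the GL2 change was 0.25 (adjusted p = 0.0905). SLC1A5 measured 10.37, 9.89 and 10.00 in p53 siRNA cells under MLN4924, against 8.63, 8.84 and 9.49 (lowest, median, highest of 6) under DMSO, a change of 1.14 ± 0.40 (adjusted p = 0.0243). That call was lost at the deposited scaling (0.73, adjusted p = 0.214), with quantile normalization (0.67, adjusted p = 0.255), against the first DMSO set (0.88, adjusted p = 0.156) and without p53 MLN4924 replicate 1 (1.0, adjusted p = 0.108) or replicate 3 (1.19, adjusted p = 0.0553). The SLC1A5 change with the BRCA1 siRNA was 0.94 ± 0.47 (adjusted p = 0.148), not called, and 0.73 (adjusted p = 0.000292) without the doubted libraries, which was. The difference in SLC1A5 change between p53 and GL2 siRNA cells was 1.01 ± 0.57 (adjusted p = 0.284), not called. With all libraries, the spread behind these SLC1A5 tests took in the low-ratio library, which was at 5.74.

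In GL2 siRNA cells SLC1A5 measured 8.22, 8.06 and 7.80 under daunorubicin, against 9.36, 9.22 and 9.29 under DMSO, a change of -1.26 ± 0.47 (adjusted p = 0.0477). Under Nutlin it measured 8.17, 8.33 and 8.36, a change of -1.0 ± 0.47 (adjusted p = 0.129). Both drug groups lay wholly below DMSO. The spread behind both tests included p53 daunorubicin, where SLC1A5 measured 5.74, 9.07 and 9.38, the first from the low-ratio library. With the 3 doubted libraries left out, the daunorubicin change was -1.26 (adjusted p = 8.52e-09) and the Nutlin change -1.0 (adjusted p = 4.88e-07), both called. With all libraries the daunorubicin call was lost at the deposited scaling (-1.09, adjusted p = 0.117) and when any single array of its groups was left out, with adjusted p from 0.0708 to 0.139.

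**Figure D3:**
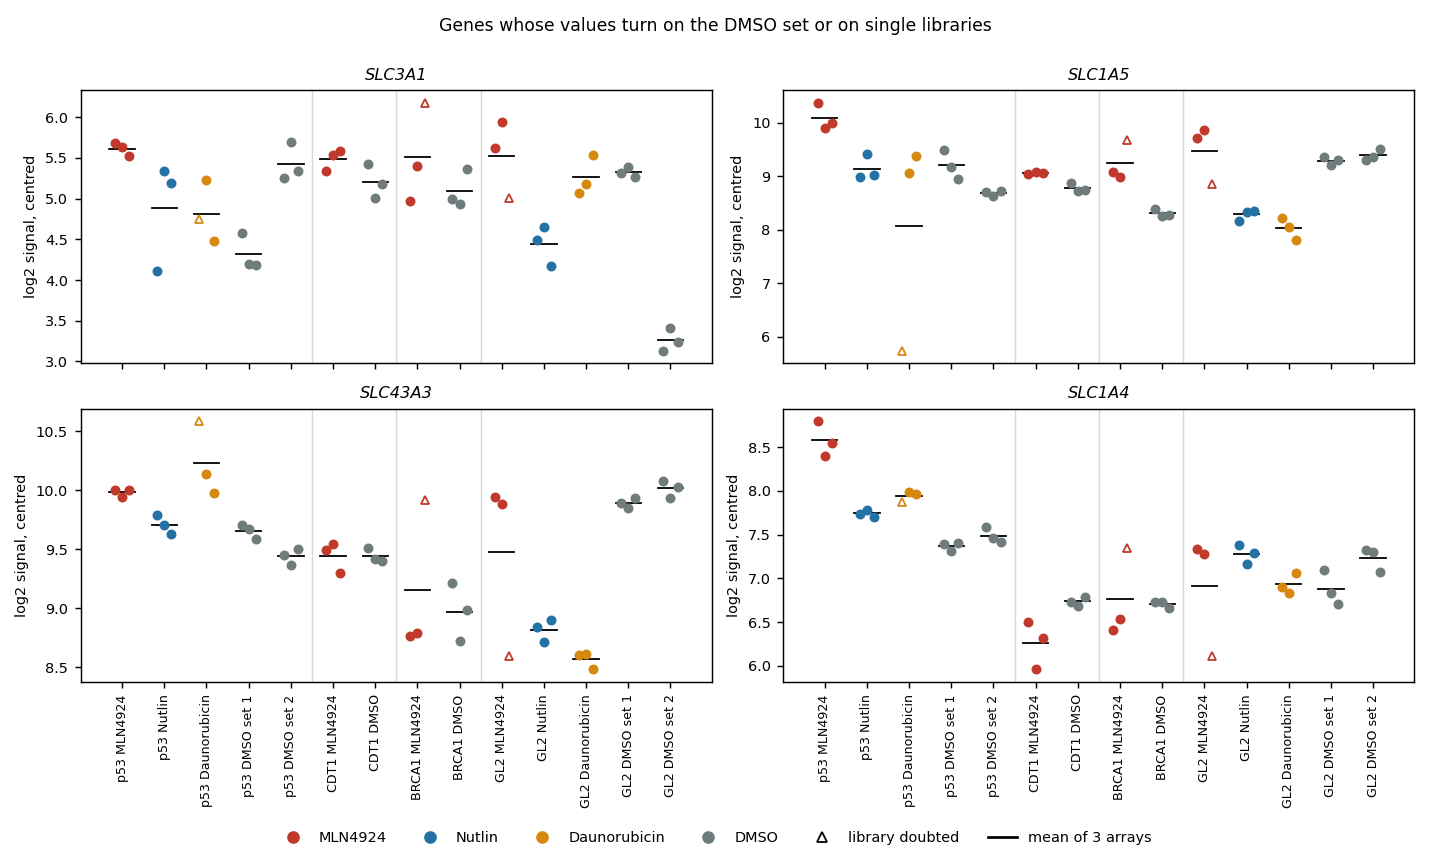
Log2 signal of SLC3A1, SLC1A5, SLC43A3 and SLC1A4 on each of the 42 arrays, in the same 14 groups, with dots for arrays, bars for means of 3 and open triangles for the 3 doubted libraries. SLC3A1 sits at 3.13 to 3.41 in the second and 5.27 to 5.39 in the first DMSO set of GL2 siRNA cells, and the low-ratio library holds SLC1A5 at 5.74, below every other array.

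SLC38A1 (SNAT1; chr12:46183063-46269043), a sodium-coupled glutamine carrier, was called in 8 of the 11 comparisons, in both directions. In cells with the p53 siRNA MLN4924 gave 11.25, 11.18 and 11.40, against 9.32, 9.65 and 10.00 (lowest, median, highest of 6) under DMSO, a change of 1.58 ± 0.15 (adjusted p = 8.05e-10). With BRCA1 it gave 10.45, 10.34 and 10.96, against 10.13, 9.87 and 9.92 under DMSO, a change of 0.61 ± 0.17 (adjusted p = 0.00856). The third BRCA1 array, the doubted one, was the highest, and without the doubted libraries the change was 0.42 (adjusted p = 0.00399), under 1.5-fold. In GL2 siRNA cells MLN4924 gave 10.94, 10.82 and 10.35, against 10.55, 10.65 and 10.74 (lowest, median, highest of 6) under DMSO, a change of 0.06 ± 0.15 (adjusted p = 0.839) with a 95% interval of -0.25 to 0.36, and these groups overlapped.

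Nutlin lowered SLC38A1 in GL2 siRNA cells, to 9.59, 9.67 and 9.59, against 10.58, 10.72 and 10.55 under DMSO, a change of -1.0 ± 0.17 (adjusted p = 4.40e-05). Daunorubicin lowered it there to 10.10, 9.88 and 9.83, a change of -0.68 ± 0.17 (adjusted p = 0.00365). In p53 siRNA cells daunorubicin gave 11.32, 10.55 and 10.36, against 9.65, 10.00 and 9.94 under DMSO, a change of 0.88 ± 0.17 (adjusted p = 0.000520). The low-ratio library was the highest of that triplet, and without it the change was 0.59 (adjusted p = 0.00677), still called. Under DMSO the p53 siRNA gave 9.32, 9.65 and 10.00 and GL2 10.55, 10.65 and 10.74 (lowest, median, highest of 6 each), a change of -0.95 ± 0.12 (adjusted p = 1.82e-06). The CDT1 siRNA gave 9.98, 10.06 and 10.10 under DMSO, a change of -0.60 ± 0.15 (adjusted p = 0.00691), and the BRCA1 siRNA 10.13, 9.87 and 9.92, a change of -0.67 ± 0.15 (adjusted p = 0.00207), both against the same GL2 arrays. No array of the 3 gene-specific siRNAs under DMSO reached the GL2 range. The GL2 daunorubicin change was under 1.5-fold at the deposited scaling (-0.51), as did the CDT1 siRNA change (-0.56) and the BRCA1 MLN4924 change (0.43). With the mean of its 4 probe sets the daunorubicin change in p53 siRNA cells was -0.08 (adjusted p = 0.866), the CDT1 change -0.42 (adjusted p = 0.122), and the Nutlin, p53 and BRCA1 siRNA changes -0.55, -0.45 and -0.55, all under 1.5-fold.

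SLC38A2 (SNAT2), a glutamine and alanine carrier that amino acid shortage is known to raise, was called in no comparison. It measured 12.37, 12.30 and 12.53 in p53 siRNA cells under MLN4924, against 11.87, 11.90 and 11.96 (lowest, median, highest of 6) under DMSO, a change of 0.49 ± 0.12 (adjusted p = 0.000843). The groups did not overlap, and the change was under 1.5-fold, with a 95% interval of 0.26 to 0.73.

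SLC38A7 and SLC38A9 act at the lysosome, SLC38A7 in the export of glutamine and SLC38A9 as an arginine sensor for mTORC1. SLC38A7 rose in GL2 siRNA cells under each drug. It measured 7.55, 7.48 and 7.90 under MLN4924, against 6.56, 6.80 and 7.02 (lowest, median, highest of 6) under DMSO, a change of 0.84 ± 0.12 (adjusted p = 3.08e-06). Under Nutlin it measured 7.71, 7.83 and 7.94 and under daunorubicin 7.84, 7.74 and 7.57, against 6.65, 6.56 and 6.72 under DMSO, changes of 1.19 ± 0.14 (adjusted p = 1.18e-07) and 1.07 ± 0.14 (adjusted p = 6.95e-07). No drug array overlapped DMSO, and with the mean of its 4 probe sets the Nutlin and daunorubicin calls were lost (0.70, adjusted p = 0.0696, and 0.57, adjusted p = 0.151). Without the doubted library the MLN4924 change was 0.71 (adjusted p = 5.47e-05). In p53 siRNA cells the 3 changes were -0.09 ± 0.12 (adjusted p = 0.640), 0.17 ± 0.14 (adjusted p = 0.748) and 0.17 ± 0.14 (adjusted p = 0.486).

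SLC38A9 measured 8.53, 8.40 and 8.60 in p53 siRNA cells under MLN4924, against 7.73, 7.88 and 8.07 (lowest, median, highest of 6) under DMSO, a change of 0.62 ± 0.13 (adjusted p = 0.000262), which was 0.20 (adjusted p = 0.111) at the deposited scaling and 0.33 (adjusted p = 0.00689) with quantile normalization. With the GL2 siRNA it measured 8.58, 8.61 and 8.11 under MLN4924, against 7.53, 7.74 and 7.78 (lowest, median, highest of 6) under DMSO, a change of 0.73 ± 0.13 (adjusted p = 5.24e-05), or 0.55 at the deposited scaling. Its daunorubicin arrays with the p53 siRNA were 8.98, 8.18 and 8.06, against 7.87, 7.73 and 7.77 under DMSO, a change of 0.62 ± 0.15 (adjusted p = 0.00365). The first array, from the low-ratio library, was the highest, and without it the change was 0.33 (adjusted p = 0.0491). Groups overlapped in none of the 3 comparisons.

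SLC38A10, a transporter of this family with glutamate and glutamine among its substrates, rose in GL2 siRNA cells, to 7.84, 7.86 and 7.82 under Nutlin and 7.93, 7.78 and 7.62 under daunorubicin, against 6.98, 6.71 and 6.83 under DMSO. The changes were 1.0 ± 0.18 (adjusted p = 5.31e-05) and 0.93 ± 0.18 (adjusted p = 0.000132), without overlap, and both calls were lost with the mean of its 7 probe sets (0.31 and 0.05). Against the second DMSO set the daunorubicin change was 0.58 (adjusted p = 0.0108), just under 1.5-fold. SLC38A6 fell in p53 siRNA cells under MLN4924, to 6.70, 6.95 and 6.98, against 7.41, 7.54 and 7.74 (lowest, median, highest of 6) under DMSO, a change of -0.67 ± 0.11 (adjusted p = 1.05e-05), and without p53 MLN4924 replicate 1 it was -0.58 (adjusted p = 0.000486), just under 1.5-fold. SLC38A4 (SNAT4), dim in every group, measured 3.75, 4.02 and 4.02 in GL2 siRNA cells under MLN4924, against -0.71, 2.98 and 3.43 (lowest, median, highest of 6) under DMSO. Its change of 1.6 ± 0.57 (adjusted p = 0.0334) was 1.04 (adjusted p = 0.109) without the DMSO array at -0.71, that of the second GL2 DMSO set, replicate 2. The call was also lost without GL2 DMSO replicate 1 (1.52, adjusted p = 0.0614). Leaving out any single GL2 MLN4924 array lost it as well, with adjusted p from 0.0686 to 0.096.

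Of the proton-coupled carriers, SLC36A4, which carries proline and tryptophan, was called in 6 comparisons and SLC36A1 (PAT1) in 1. SLC36A4 measured 7.77, 7.68 and 7.84 in p53 siRNA cells under MLN4924, against 6.85, 7.03 and 7.41 (lowest, median, highest of 6) under DMSO, a change of 0.69 ± 0.19 (adjusted p = 0.00399). In CDT1 siRNA cells it was 7.84, 7.86 and 7.81 under MLN4924, against 7.05, 7.01 and 7.24 under DMSO, a change of 0.74 ± 0.22 (adjusted p = 0.0185). In BRCA1 siRNA cells it was 7.10, 7.38 and 7.74, against 6.69, 6.54 and 6.55 under DMSO, a change of 0.81 ± 0.22 (adjusted p = 0.00575). These groups did not overlap. In cells with the GL2 siRNA MLN4924 gave 7.97, 7.94 and 7.03, against 6.98, 7.33 and 7.48 (lowest, median, highest of 6) under DMSO, a change of 0.36 ± 0.19 (adjusted p = 0.170). The doubted library was the lowest of the GL2 and the highest of the BRCA1 triplet, and without the doubted libraries the changes were 0.67 (adjusted p = 7.02e-05) with GL2 and 0.65 (adjusted p = 0.000458) with BRCA1, both called. Leaving out BRCA1 MLN4924 replicate 3 alone gave 0.65 (adjusted p = 0.0525).

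Nutlin lowered SLC36A4 in GL2 siRNA cells to 6.54, 6.48 and 6.26 and daunorubicin to 6.46, 6.06 and 6.17, against 7.16, 7.30 and 6.98 under DMSO, changes of -0.71 ± 0.22 (adjusted p = 0.0161) and -0.92 ± 0.22 (adjusted p = 0.00203). With the BRCA1 siRNA under DMSO it was 6.69, 6.54 and 6.55, against 6.98, 7.33 and 7.48 (lowest, median, highest of 6) with GL2, a change of -0.70 ± 0.19 (adjusted p = 0.0114). None of these groups overlapped. Several calls were near the threshold: the p53 MLN4924 change was 0.27 (adjusted p = 0.203) at the deposited scaling, the CDT1 change 0.69 (adjusted p = 0.0686) without CDT1 DMSO replicate 2, the Nutlin change -0.64 (adjusted p = 0.0725) without GL2 DMSO replicate 2 and the BRCA1 siRNA change -0.55 (adjusted p = 0.114) against the first DMSO set. SLC36A1, a lysosomal and plasma membrane carrier of small neutral amino acids, measured 7.66, 7.47 and 7.35 with the BRCA1 siRNA under DMSO, against 6.28, 6.88 and 7.16 (lowest, median, highest of 6) with GL2, a change of 0.66 ± 0.16 (adjusted p = 0.00393), or 0.44 (adjusted p = 0.133) against the first DMSO set.

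In the SLC43A family, SLC43A3, a carrier of purine bases despite its family name, fell in GL2 siRNA cells under Nutlin and daunorubicin. It measured 8.84, 8.71 and 8.90 under Nutlin and 8.61, 8.62 and 8.48 under daunorubicin, against 9.89, 9.85 and 9.93 under DMSO, changes of -1.07 ± 0.24 (adjusted p = 0.000993) and -1.32 ± 0.24 (adjusted p = 8.27e-05). The BRCA1 siRNA under DMSO gave 9.21, 8.72 and 8.98, against 9.85, 9.94 and 10.08 (lowest, median, highest of 6) with GL2, a change of -0.98 ± 0.21 (adjusted p = 0.00128). All 3 comparisons were without overlap. Under MLN4924 the BRCA1 siRNA cells measured 8.76, 8.79 and 9.92 and the GL2 siRNA cells 9.94, 9.88 and 8.60. The third array of each, a doubted library, stood apart, and no call was made in either. SLC43A1 (LAT3), a carrier of large neutral amino acids, measured 7.46, 7.55 and 7.39 in p53 siRNA cells under MLN4924, against 6.41, 6.55 and 6.86 (lowest, median, highest of 6) under DMSO. Its change of 0.90 ± 0.15 (adjusted p = 1.87e-05), without overlap, was 0.48 (adjusted p = 0.0232) at the deposited scaling, under 1.5-fold.

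The remaining 15 genes were called in none of the 11 comparisons. They were SLC1A2, SLC1A6, SLC1A7, SLC38A2, SLC38A3, SLC38A5, SLC38A11, SLC38A12, SLC43A2, SLC7A4, SLC7A6, SLC7A7, SLC7A9, SLC7A10 and SLC7A14, and 7 of them were dim in every group. Their changes ran from -1.39 (SLC1A6, MLN4924 in p53 siRNA cells, adjusted p = 0.10) to 1.69 (SLC38A5, MLN4924 in BRCA1 siRNA cells, adjusted p = 0.0691). The smallest adjusted p among them was that of SLC38A2 in p53 siRNA cells under MLN4924, given above.

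Whether a drug acted differently on the carriers when p53 was targeted was tested as the difference between the change in p53 and the change in GL2 siRNA cells. For MLN4924, 6 carriers changed more upward and 2 more downward in p53 siRNA cells, 20.5% against 10.4% of all genes (6.96% higher, 3.41% lower). SLC38A1 (1.52 ± 0.21, adjusted p = 1.29e-05), SLC1A4 (1.30 ± 0.26, adjusted p = 0.000857), SLC7A1 (0.94 ± 0.16, adjusted p = 0.000170) and SLC3A2 (0.83 ± 0.15, adjusted p = 0.000400) were among the 6. SLC7A2 and SLC43A3 completed them at 0.88 ± 0.29 (adjusted p = 0.0457) and 0.92 ± 0.29 (adjusted p = 0.0363), and the SLC43A3 difference was 0.48 (adjusted p = 0.00485), under 1.5-fold, without the doubted libraries, while that of SLC7A2 was 0.83 (adjusted p = 0.0844) and had adjusted p from 0.0254 to 0.133 with single arrays left out. SLC1A3 (-1.36 ± 0.25, adjusted p = 0.000354) and SLC38A7 (-0.93 ± 0.18, adjusted p = 0.000464) were lower. At the deposited scaling 4 were higher and 2 lower, and the balance over all genes turned, with 653 higher and 1421 lower. With quantile normalization 3 were higher and 2 lower, where all genes gave 714 and 886, and SLC3A2 was at 0.52 (adjusted p = 0.123). When the 3 doubted libraries were left out, the differences were 1.34 for SLC38A1, 0.91 for SLC1A4, 0.83 for SLC7A1, 0.74 for SLC3A2, -1.26 for SLC1A3 and -0.80 for SLC38A7. With the mean of all probe sets SLC38A1 was at 0.49 (adjusted p = 0.227), SLC7A1 at 0.78 (adjusted p = 0.0855) and SLC38A7 at -0.35 (adjusted p = 0.617).

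For Nutlin the difference was called for 4 carriers upward and 1 downward, 12.8% against 10.0% of all genes (5.30% higher, 4.72% lower). For daunorubicin it was called for 6 upward and 2 downward, 20.5% against 15.3% (9.65% higher, 5.69% lower). SLC7A1 differed by 0.96 ± 0.19 (adjusted p = 0.000490) for Nutlin and 1.42 ± 0.19 (adjusted p = 1.43e-06) for daunorubicin, SLC38A1 by 1.01 ± 0.25 (adjusted p = 0.00541) and 1.56 ± 0.25 (adjusted p = 2.44e-05), and SLC43A3 by 1.13 ± 0.34 (adjusted p = 0.0269) and 1.90 ± 0.34 (adjusted p = 0.000133). SLC38A7 differed by -1.01 ± 0.20 (adjusted p = 0.000657) and -0.90 ± 0.20 (adjusted p = 0.00172), the opposite way. The SLC38A1, SLC38A7 and SLC7A1 differences for both drugs were lost with the mean of all probe sets, as was that of SLC43A3 for Nutlin (0.98, adjusted p = 0.101). That SLC43A3 call was also lost, at adjusted p from 0.0519 to 0.0631, without GL2 DMSO replicate 3, p53 DMSO replicate 3, GL2 Nutlin replicate 2 or p53 Nutlin replicate 1. Against the second DMSO set those of SLC38A7 were -0.56 and -0.44, under 1.5-fold. For daunorubicin SLC7A2 (2.60 ± 0.34, adjusted p = 1.30e-06), SLC7A6OS (1.03 ± 0.17, adjusted p = 3.08e-05), SLC3A2 (0.62 ± 0.18, adjusted p = 0.0132) and SLC7A13 (-2.76 ± 0.80, adjusted p = 0.0153) were also called, and SLC7A2 was at 1.06 (adjusted p = 0.293) with the mean of its probe sets. Without p53 daunorubicin replicate 2 the SLC3A2 difference was 0.48 (adjusted p = 0.0511), and without replicate 3 that of SLC7A13 was -1.91 (adjusted p = 0.0603). The SLC3A1 difference for Nutlin, 1.45 ± 0.38 (adjusted p = 0.0101), had the opposite sign against the second DMSO set (-1.72, adjusted p = 0.00180). Without the 3 doubted libraries 7 were higher and 2 lower for Nutlin and 7 and 4 for daunorubicin, and SLC1A5 joined both, at 0.94 (adjusted p = 0.000393) and 1.28 (adjusted p = 1.55e-05). Over all genes, leaving out these libraries gave 1384 higher and 1285 lower for Nutlin and 1508 and 1416 for daunorubicin. The daunorubicin differences without them were 1.20 for SLC7A1, 1.27 for SLC38A1, 1.72 for SLC43A3, 2.45 for SLC7A2 and 0.85 for SLC7A6OS.

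**Figure D4:**
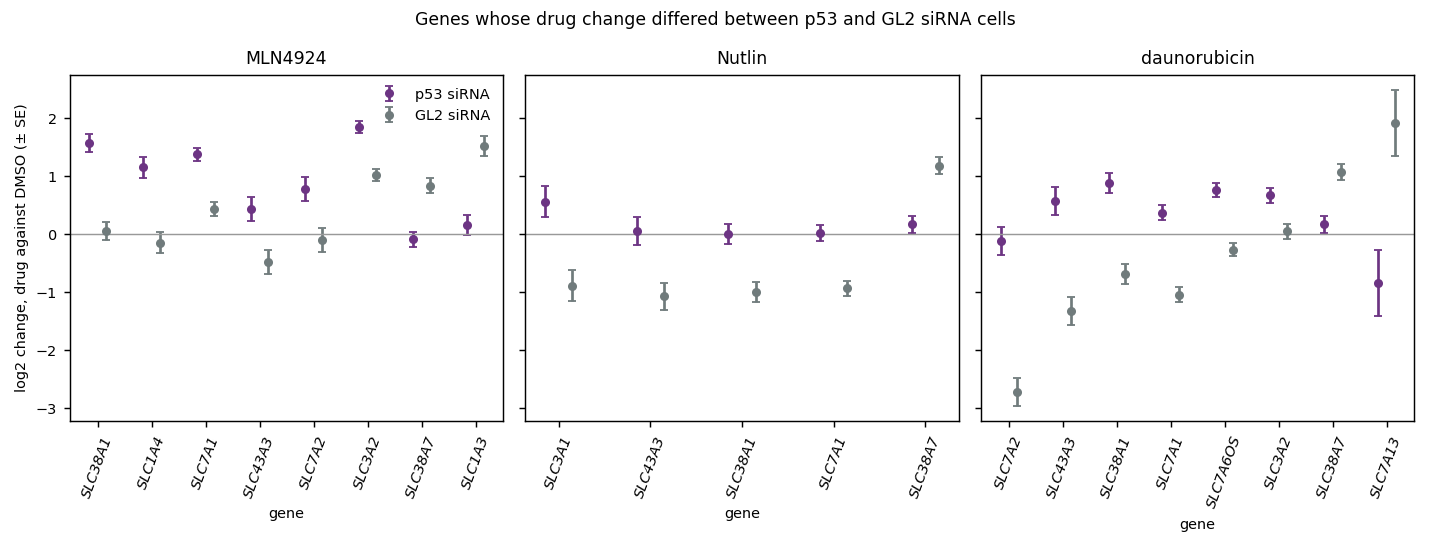
Log2 change ± SE under MLN4924, Nutlin and daunorubicin in p53 siRNA cells (left point of each pair) and GL2 siRNA cells (right point), for the carriers whose change differed between the cells. SLC7A1 and SLC38A1 lie higher in p53 siRNA cells in all 3 panels, and SLC38A7 lower.

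The MLN4924 change with the CDT1 siRNA differed from that with GL2 for 1 carrier, SLC1A3 (-1.40 ± 0.27, adjusted p = 0.00542), 2.56% against 1.22% of all genes (0.521% higher, 0.698% lower). The deposited scaling and quantile normalization each gave 1 higher and 1 lower. Of all genes 245 were higher and 133 lower at the deposited scaling and 172 and 159 with quantile normalization. With the BRCA1 siRNA limma called a difference for 0 carriers (8 at an unadjusted p under 0.05), where 1.86% of all genes were called (0.632% higher, 1.23% lower). With the 3 doubted libraries left out, 3 carriers were called lower with CDT1 and 2 with BRCA1. Calls over all genes rose too, to 305 higher and 353 lower with CDT1 and 225 and 399 with BRCA1. In GL2 siRNA cells the MLN4924 change less the Nutlin change was called for 12 carriers upward and 1 downward, 33.3% against 25.7% of all genes (17% higher, 8.69% lower). Less the daunorubicin change it was called for 12 upward and 2 downward, 35.9% against 27.2% (18.2% higher, 9.03% lower). At the deposited scaling these were 8 and 5 for Nutlin and 8 and 4 for daunorubicin, and 10 and 3 for Nutlin with quantile normalization. Over all genes the deposited scaling turned the balance, with 1804 higher and 3188 lower for Nutlin and 1745 and 3428 for daunorubicin. Quantile normalization gave 2276 and 2155 of all genes for Nutlin. The differences less Nutlin were 1.79 ± 0.22 (adjusted p = 1.02e-07) for SLC7A11 and 1.37 ± 0.15 (adjusted p = 1.17e-08) for SLC7A1, and those less daunorubicin 1.76 ± 0.22 (adjusted p = 1.33e-07) for SLC7A11 and 1.48 ± 0.15 (adjusted p = 2.60e-09) for SLC7A1.

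Genes of the amino acid and integrated stress response also rose under MLN4924. Of 28 such genes (ATF4 and its reported targets), 24 rose with the p53, 10 with the CDT1, 20 with the BRCA1 and 16 with the GL2 siRNA, and 0 fell in any. Of all genes 17.8% were called higher with the p53, 5.93% with the CDT1, 9.79% with the BRCA1 and 10.2% with the GL2 siRNA. The median change of the 28 was 1.29 with p53, 0.42 with CDT1, 0.91 with BRCA1 and 0.62 with GL2. ATF3, a stress-response transcription factor, rose by 4.01 ± 0.14 (adjusted p = 2.08e-19) with p53 and 3.48 ± 0.14 (adjusted p = 3.01e-18) with GL2 siRNA. CTH, which makes cysteine from cystathionine, rose by 2.31 ± 0.14 (adjusted p = 1.05e-13) and 1.85 ± 0.14 (adjusted p = 1.88e-11) in the same cells, and CHAC1, which degrades glutathione, by 4.03 ± 0.28 (adjusted p = 1.19e-12) with p53 and 3.40 ± 0.32 (adjusted p = 1.64e-09) with BRCA1 siRNA. At the deposited scaling the counts were 21, 7, 18 and 13 higher, with 1 lower each for p53 and CDT1, and without the doubted libraries 16 rose with BRCA1 and 20 with GL2. Of all genes the deposited scaling gave 1054 higher and 3450 lower with p53, 806 and 1225 with CDT1, 1000 and 1977 with BRCA1 and 1125 and 2152 with GL2. Without the doubted libraries 1899 of all genes rose with BRCA1 and 2239 with GL2. Of 17 aminoacyl-tRNA synthetases, which load tRNAs with amino acids, 12 rose with p53, 1 with CDT1, 8 with BRCA1 and 4 with GL2 siRNA. SARS1, that for serine, rose by 1.26 ± 0.12 (adjusted p = 5.50e-10) with p53 and 1.01 ± 0.12 (adjusted p = 6.20e-08) with GL2, and YARS1, that for tyrosine, by 1.29 ± 0.09 (adjusted p = 1.60e-12) and 0.70 ± 0.09 (adjusted p = 3.61e-07). The deposited scaling left 4, 0, 5 and 1 of them.

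Of 13 NRF2 and glutathione genes, 10 rose with the p53, 6 with the CDT1, 8 with the BRCA1 and 8 with the GL2 siRNA under MLN4924, and 0 fell. Of all genes 17.8% were called higher and 7.60% lower with the p53 siRNA and 5.93% and 4.63% with the CDT1 siRNA. The BRCA1 siRNA gave 9.79% and 7.15% and the GL2 siRNA 10.2% and 7.06%. SRXN1, a sulfiredoxin, rose by 2.5 ± 0.14 (adjusted p = 5.32e-15) with p53, 1.79 ± 0.16 (adjusted p = 7.82e-10) with CDT1, 2.02 ± 0.16 (adjusted p = 2.40e-11) with BRCA1 and 2.06 ± 0.14 (adjusted p = 5.09e-13) with GL2 siRNA. GCLM, a subunit of the enzyme that begins glutathione synthesis, rose by 1.84 ± 0.12 (adjusted p = 4.86e-13) with p53 and 1.19 ± 0.12 (adjusted p = 5.65e-09) with GL2. At the deposited scaling 8 rose and 1 fell with p53, and 6, 7 and 8 rose with CDT1, BRCA1 and GL2. Of 14 glutamine and glutamate enzymes, 7 rose and 1 fell with p53 siRNA, among them GOT1 (1.18) and PPAT (1.15), against 2 and 2 at the deposited scaling. In the other backgrounds 1 rose in each and 1, PYCR3, fell with GL2 (-0.99). Of 26 amino acid carriers of other families, 5 rose and 2 fell with p53, 2 and 0 with CDT1, 2 and 2 with BRCA1 and 2 and 0 with GL2 siRNA. The taurine carrier SLC6A6 rose by 0.85 ± 0.11 (adjusted p = 3.82e-07) with p53 and 1.40 ± 0.11 (adjusted p = 4.12e-11) with GL2.

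Of 33 genes of the mTORC1 sensing complexes, 5 rose and 4 fell with p53, 2 and 1 with CDT1, 4 and 2 with BRCA1 and 4 and 1 with GL2 siRNA under MLN4924. Of all genes 17.8% were higher and 7.60% lower with p53, 5.93% and 4.63% with CDT1, 9.79% and 7.15% with BRCA1 and 10.2% and 7.06% with GL2, so these shares, like those of the glutamine enzymes outside p53 siRNA cells and of the other carriers, lay near the background. SESN3, a sestrin, fell with p53 siRNA, at -2.72 ± 0.26 (adjusted p = 8.93e-10), and SESN1, a p53 target, rose by 2.26 ± 0.12 (adjusted p = 2.06e-15) with GL2. Of 8 genes of the eIF2 kinases and phosphatase, 2 rose and 0 fell with p53, 1 and 0 with CDT1, 2 and 1 with BRCA1 and 0 and 1 with GL2.

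Under Nutlin in GL2 siRNA cells 5 of the 28 stress response genes rose and 7 fell, and under daunorubicin 2 rose and 9 fell, or 4 and 4 at the deposited scaling. Of all genes 6.71% were called higher and 9.67% lower under Nutlin and 6.49% higher and 9.93% lower under daunorubicin in these cells. At the deposited scaling all genes gave 2055 higher and 1352 lower under daunorubicin. The medians of the 28 were -0.31 and -0.35, against 0.01 and -0.01 for all genes. PHGDH, the first enzyme of serine synthesis, fell in these cells, at -1.72 ± 0.18 (adjusted p = 8.31e-09) under Nutlin and -1.65 ± 0.18 (adjusted p = 2.05e-08) under daunorubicin, while SESN2 rose by 1.65 ± 0.20 (adjusted p = 1.74e-07) and 1.47 ± 0.20 (adjusted p = 1.37e-06). With the p53 siRNA daunorubicin raised 14 and lowered 1 of the 28, against 5.67% of all genes higher and 6.35% lower, with ATF3 at 2.39 ± 0.16 (adjusted p = 5.84e-12) and ALDH1L2, a mitochondrial folate enzyme, at 2.92 ± 0.26 (adjusted p = 1.97e-09). Of the 8 p53 pathway genes, all 8 rose in GL2 siRNA cells with each drug, and CDKN1A rose by 2.57 ± 0.15 (adjusted p = 1.90e-14) under MLN4924, 3.28 ± 0.17 (adjusted p = 7.12e-16) under Nutlin and 2.78 ± 0.17 (adjusted p = 5.69e-14) under daunorubicin. Of the same 8 genes in p53 siRNA cells, 3 rose and 2 fell under MLN4924, 2 rose under Nutlin and 6 under daunorubicin.

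**Figure D5:**
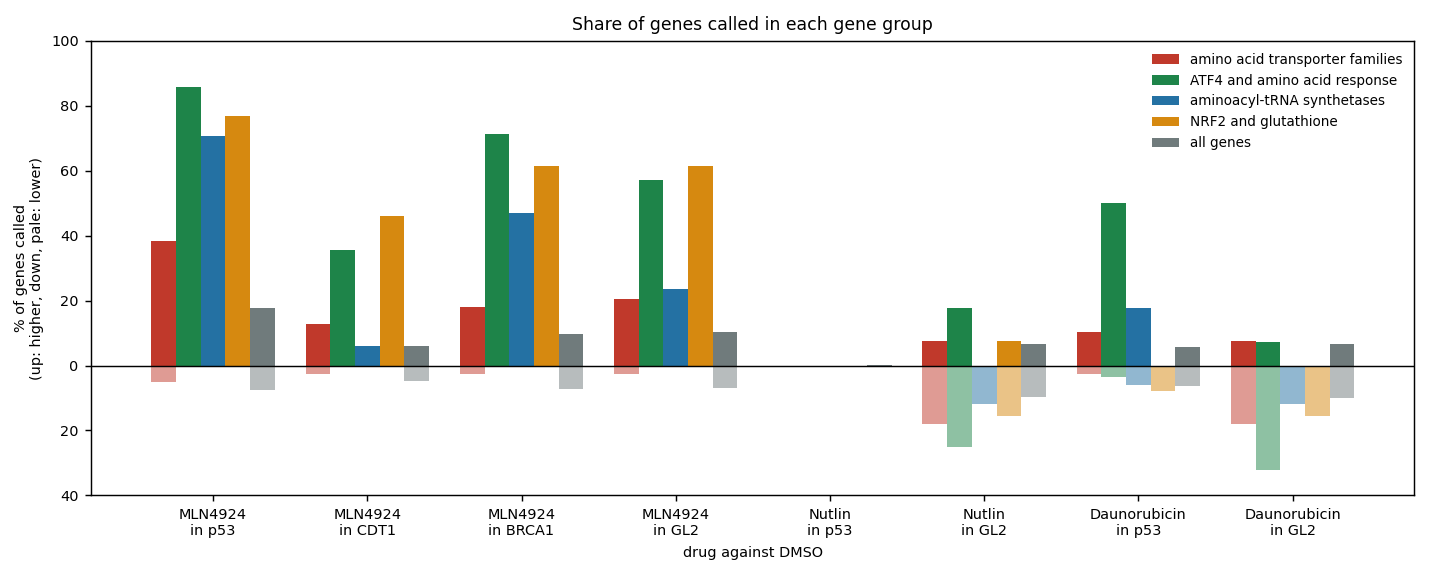
Share of genes called higher (bars upward) and lower (pale bars downward), in percent, for the carrier families, the 28 stress response genes, the 17 tRNA synthetases, the 13 NRF2 and glutathione genes and all genes, in the 8 comparisons of a drug with DMSO. The stress response bars reach 24 of 28 under MLN4924 with the p53 siRNA and in GL2 siRNA cells 5 rose and 7 fell under Nutlin and 2 rose and 9 fell under daunorubicin, or 4 and 4 at the deposited scaling for daunorubicin.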

How the data were processed

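RNA of 42 samples was measured on Affymetrix HG-U133 Plus arrays of 54675 probe sets. The values used are linear signal intensity per probe set, deposited by the authors. The submitters' processing notes name Affymetrix Expression Console, with no version given in the sources used here. Each deposited array had the same trimmed mean of 150.02 with 2% of the values taken off each end. The sample files hold no counts, and the number of arrays limits the precision.

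Signals of 0 (147 values) were raised to 0.1 and log2 taken. Of the probe sets, 41091 had 1 gene symbol, 1801 several and 11721 none in GEO's platform annotation, and 62 controls were left out. For each of 19775 genes the single-symbol probe set with the highest mean was kept. Each array was shifted to a common median gene. All 14 groups entered 1 limma model (limma 3.58.1, R 4.3.3; tables with Python 3.11.15 and pandas 2.3.3) with 28 residual degrees of freedom, and 18 comparisons were tested over all 19775 genes with Benjamini-Hochberg adjustment, two-sided, with no filter on low values. The 2 DMSO sets counted equally as control for MLN4924 and for the siRNAs, and the first set for Nutlin and daunorubicin. Calls needed an adjusted p under 0.05 and 1.5-fold, and the pipeline was tested on simulated data.

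Every member called in at least 1 of the 11 comparisons of a drug or an siRNA is described, and the others by range and count. From each other gene list up to 4 called genes with the largest moderated statistic could be named. The members and the lists were chosen with earlier results of these data known. Symbols matched RefSeq for all 39 members. Another 4 hyphenated symbols and 6 probe sets with several symbols of these families were left out. The level of 1 siRNA target is not reported here. The alternatives tried were the deposited scaling, averaging the probe sets of each gene, quantile normalization, a pseudocount of 16, leaving out dim genes, the replicate number as a block, fitting only the groups compared, other DMSO sets, leaving out the 3 doubted libraries and leaving out each array in turn. The counts of the gene lists without these libraries or at other scalings were added after seeing the data.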

Additional observations from a re-analysis of the deposited data

Results flagged for a closer look

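In the 6 DMSO arrays of an siRNA, 1 array stood far from the rest for 6 of 78 gene and siRNA pairs tested with Dixon's criterion, and chance gives about 1 in 20. In GL2 siRNA cells these arrays were at 1.35 for SLC1A6, 5.93 for SLC38A12, -0.71 for SLC38A4, 5.17 for SLC7A8 and 4.77 for SLC7A9. In p53 siRNA cells 1 array was at 9.03 for SLC1A1. Of these, SLC38A4 was the gene whose call was lost without the array, as it was without some other single arrays.

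The change under a drug differed between siRNAs for 22 pairs of gene and drug in limma at the thresholds of the report. Under MLN4924 the change in p53 siRNA cells less that in GL2 siRNA cells was 1.52 for SLC38A1, 1.30 for SLC1A4, 0.94 for SLC7A1, 0.92 for SLC43A3, 0.88 for SLC7A2 and 0.83 for SLC3A2. It was -1.36 for SLC1A3 and -0.93 for SLC38A7. In CDT1 less GL2 siRNA cells it was -1.40 for SLC1A3. Under Nutlin the p53 less GL2 difference was 1.45 for SLC3A1, 1.13 for SLC43A3, 1.01 for SLC38A1, 0.96 for SLC7A1 and -1.01 for SLC38A7. Under daunorubicin it was 2.60 for SLC7A2, 1.90 for SLC43A3, 1.56 for SLC38A1, 1.42 for SLC7A1, 1.03 for SLC7A6OS, 0.62 for SLC3A2, -0.90 for SLC38A7 and -2.76 for SLC7A13. SLC1A5 lay in none of these with all libraries, and its p53 daunorubicin arrays included the low-ratio library at 5.74.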

How the results depend on the processing

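Of 128 calls of carriers over the 18 comparisons, 45 kept their direction and their call under every alternative and with every single array left out. Of 1247 alternative values of called pairs 155 lost the call and 9 changed sign, and of 1239 values with an array left out 94 lost it and 0 changed sign. The mean of all probe sets ended or turned 53 calls, the deposited scaling 27, quantile normalization 20, the second DMSO set 17, fitting only the groups compared 14, the first DMSO set 13, a pseudocount of 16 11, leaving out the 3 doubted libraries 5, both DMSO sets 3, the replicate block 1 and leaving out dim genes 0. The averaged probe sets included faint ones, with mean log2 signals down to 1.17 for SLC38A10, 1.21 for SLC38A1 and 2.83 for SLC7A1 and SLC7A2. The labels do not say whether the replicate numbers pair the samples. Over 42 pairs of same-numbered arrays the correlation of deviations ran from -0.07 to 0.11, and in 0 of 14 pairs of groups were all 3 over 0.1. Low correlations over all genes cannot exclude a pairing, since most of each deviation may be noise. With the replicate block the one call that changed was that of SLC1A5 under daunorubicin in GL2 siRNA cells (-1.26, adjusted p = 0.0547). Counts of called carriers that moved by over 1.5 times were as follows. At the deposited scaling 10 were called for MLN4924 with p53 siRNA, 2 for its CDT1 less GL2 and 1 for its BRCA1 less GL2 difference. With quantile normalization 5 were called for MLN4924 with BRCA1, 5 for its p53 less GL2, 2 for its CDT1 less GL2 and 1 for its BRCA1 less GL2 difference, and 8 for the Nutlin difference. With the mean of all probe sets 3 were called for Nutlin and 6 for daunorubicin in GL2 siRNA cells, 3 for daunorubicin in p53 siRNA cells, 1 for the p53, 2 for the CDT1 and 4 for the BRCA1 siRNA. It also left 4 for the MLN4924 p53 less GL2 and 0 for the CDT1 less GL2 difference, 1 for the Nutlin and 5 for the daunorubicin difference. A pseudocount of 16 left 2 for the CDT1 siRNA, fitting only the groups compared 0 for daunorubicin in p53 siRNA cells, and the first DMSO set 4 for the BRCA1 siRNA. The second DMSO set gave 1 for Nutlin in p53 siRNA cells, 4 for the p53 siRNA and 2 each for the CDT1 and BRCA1 less GL2 differences. Without the 3 doubted libraries these differences gave 3 and 2 and the Nutlin difference 9. With single arrays left out the CDT1 siRNA gave 2 to 4, the CDT1 less GL2 difference 1 to 2 and the BRCA1 less GL2 difference 0 to 1. Signs turned for SLC3A1 with the mean of its probe sets (-0.088 for the BRCA1 siRNA and -0.13 for MLN4924 with p53 siRNA) and against the first DMSO set (-0.23 for the BRCA1, -0.12 for the CDT1 and -1.003 for the p53 siRNA). Against the second and both DMSO sets its changes in GL2 siRNA cells were 2.00 and 0.97 for daunorubicin and 1.18 and 0.14 for Nutlin, and its p53 less GL2 differences -2.61 and -1.03 for daunorubicin and -1.72 and -0.14 for Nutlin. With the mean of all probe sets the SLC1A7 daunorubicin difference was 1.64 and the SLC38A1 daunorubicin change in p53 siRNA cells -0.078. Over all genes, 11 were called for Nutlin in p53 siRNA cells, and 17 at the deposited scaling, 742 against the second DMSO set, 228 against both, 87 without the doubted libraries and 1 when only the groups compared were fitted. That fit gave 51 genes of 2377 for daunorubicin in p53 siRNA cells and 1260 of 3035 for its difference. The first DMSO set gave 346 of 787 for the p53 siRNA and 1290 of 2051 for the MLN4924 p53 less GL2 difference. The CDT1 less GL2 difference gave 658 against 241 and the BRCA1 less GL2 difference 624 against 368 genes without the doubted libraries. The cause of these changes was not tested. Low signal limits SLC38A4 and SLC7A13, called though dim in every group.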

Other observations

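Some of the 28 stress response genes were also called between siRNAs under DMSO. Against GL2, 0 rose and 3 fell with the p53, 0 and 7 with the CDT1 and 0 and 8 with the BRCA1 siRNA, and their median changes were -0.25, -0.36 and -0.41. Of all genes 1.71% were called higher and 2.27% lower with the p53, 2.72% and 3.58% with the CDT1 and 4.11% and 4.37% with the BRCA1 siRNA. For MLN4924 13 of the 28 changed more upward and 1 more downward in p53 than in GL2 siRNA cells, against 6.96% of all genes upward and 3.41% downward. At the deposited scaling 7 and 2 of the 28 did so, where all genes gave 653 upward and 1421 downward. Without the 3 doubted libraries it was 9 and 1, where all genes gave 1309 and 705. For daunorubicin the same difference was called upward for 20 and downward for 1 of the 28, with a median of 0.96, against 9.65% of all genes upward and 5.69% downward.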
